A study of Homo sapiens with 2 samples.

Results

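The gene group described here consists of 9 target genes of the transcription factor p53: MDM2, BAX, TP53INP1, GDF15, FDXR, RRM2B, XPC, ZMAT3 and SPATA18. They were picked by symbol, 1 row per symbol, out of 56638 genes in the deposited tables. Their RNA was compared between TFK1 cells, an established cholangiocarcinoma (CCA) line, in which MBD2 was knocked down (shMBD2) and TFK1 cells with a negative control shRNA (shNC). MBD2 is a reader of methylated CpG dinucleotides. The study introduced shRNAs with lentivirus and selected positive cells with puromycin or G-418, and the labels give no treatment for either library. With 1 library per condition, differences have no replicate check and no p-value is given. The labels do not say which of the study's 2 MBD2 shRNAs was sequenced. The 21-base target of either one matched MBD2 and none of the 105 transcripts of the 9 genes in GENCODE 29.

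p53 is kept low in unstressed cells by MDM2, a ubiquitin ligase that marks it for degradation. When DNA damage or other stress stabilizes p53, it binds a pair of short recognition units near its targets and raises genes that halt the cell cycle, repair DNA, adjust metabolism or bring about apoptosis. MDM2 is itself such a target, which closes a feedback loop. Genes of cell division are lowered indirectly when p53 is active.

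The sequences that most resemble a p53 binding site are shown for 7 of the genes because the genes are grouped by their relation to this factor. RefSeq promoter windows (GRCh38.p14), which run from 250 bases before to 50 bases after a start site, were found for 7 of the 9 genes, in 12 windows. TP53INP1 and RRM2B have no entry there. The search took 2 p53 recognition units of 10 letters with a spacer of up to 13 bases, kept the central C and G of each unit fixed, read both strands and took the closest pair over a gene's windows; it was chosen after the promoters had been looked at. Capitals mark the letters that match the p53 consensus, lower case marks mismatches and spacers, and each sequence is read 5′ to 3′ on the strand of the gene.
MDM2: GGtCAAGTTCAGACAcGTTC
FDXR: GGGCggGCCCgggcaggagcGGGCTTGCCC
GDF15: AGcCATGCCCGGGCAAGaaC
ZMAT3: GGGCcTGCTCcgccaaGcACATGCgC
XPC: tGACTAGgCCtccaacgaagGGGCgTGgCC
BAX: AGGCAgGTgCGGtCAcGTga
SPATA18: ttACAAGTTTcAtACAgGTaa
The MDM2 sequence (chr12:68808923-68808942, plus strand) had 2 mismatches and no spacer, and lies 94 bases before the nearer of 2 start sites whose windows hold it; the windows of the other 2 start sites had no pair closer than 4 mismatches. The FDXR sequence (chr17:74872996-74873025, minus strand) also had 2 mismatches, with a spacer of 10 bases. As close a match was found in 2.93% of the 35116 promoter windows of all genes. Each share given here is of single windows, whereas a gene with several windows (MDM2, FDXR and ZMAT3) is shown at its closest. The GDF15 sequence (chr19:18386186-18386205, plus strand), 28 bases past the start site, and the ZMAT3 sequence (chr3:179071867-179071892, minus strand) had 3 mismatches, which 12.8% of all windows reached. The XPC sequence (chr3:14178658-14178687, minus strand) had 4 mismatches, reached by 35.4%, and BAX (chr19:48954769-48954788, plus strand) and SPATA18 (chr4:52051076-52051096, plus strand) had 6, reached by 86.6%. A recognition unit without mismatch was found in 1 of the 12 windows, that of FDXR, and in 6.63% of all windows. These matches describe the letters of a window and say nothing of binding in TFK1 cells.

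The deposited counts summed to 14728814 in shMBD2 and 14467406 in shNC. MBD2, the knocked-down gene, had 365 counts (15.6 TPM) in shMBD2 and 1013 counts (44.6 TPM) in shNC, 35.8% of the control after scaling. Of 6 biliary epithelial markers, KRT7, KRT8 and KRT18 had between 6277 and 62047 counts. KRT19 had only 119 in shMBD2 and 70 in shNC, EPCAM 111 and 162, and SOX9 264 and 435. After scaling, KRT19 was higher in shMBD2 and the other 5 markers were lower. The summed level of these 6 markers was 4730 TPM in shMBD2 and 5949 TPM in shNC. None of the 15 markers of leukocytes, fibroblasts and endothelial cells had more than 6 counts in a library. Among 4 hepatocyte markers ALB had 3 and 0 counts, APOA2 and TTR had 0 in both, and FGB had 473 counts in shMBD2 and 1569 in shNC.

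At the level of RNA, the 9 p53 target genes of this group differed little between the libraries. Log2FC is shMBD2 over shNC after TMM scaling with 0.5 counts added, and its 95% interval is the exact Clopper-Pearson interval for how a gene's reads divide between the libraries, which covers counting error only. In these bulk libraries a change in RNA per cell and a change in the share of cells expressing a gene cannot be told apart. Of the 9 genes, 8 had a log2FC above 0, against 48.9% of the 17545 genes with at least 10 counts and 50.4% of the 11972 genes with at least 100. No gene of the group passed a log2FC of 1 or -1, lines that 5.48% and 5.07% of the tested genes passed, or 1.78% and 1.06% of those with at least 100 counts. None passed 1.5-fold in either direction, against 11% of the tested genes for higher and 10.9% for lower, or 4.99% and 4.28% of those with at least 100 counts, a depth that all 9 genes reached. The counting interval lay above 0 for 4 of the 9 genes, GDF15, FDXR, MDM2 and SPATA18, against 19.7% of the tested genes and 24.4% of those with at least 100 counts. It lay below 0 for none, against 18.4% of the tested genes and 22.7% of those with at least 100 counts. The median log2FC of the 9 genes was 0.16, beside -0.0082 over all tested genes. The genes were chosen with earlier results of these libraries known, so these counts describe the group and test nothing.

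**Figure D1:**
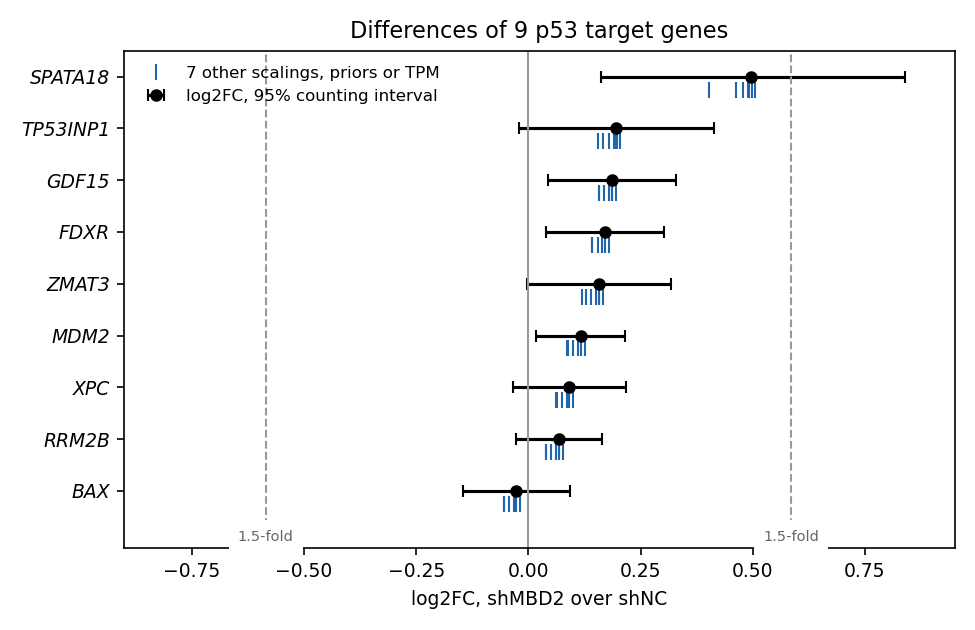
Log2FC (shMBD2 over shNC) of the 9 p53 target genes, with 95% counting intervals as bars and the values under 7 other scalings, prior counts or TPM offsets as blue ticks; dashed lines mark 1.5-fold. All points lie inside the dashed lines, 8 of them to the right of 0, and SPATA18 at 0.50 lies furthest from it.

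MDM2 (ENSG00000135679, chromosome 12, 68808176 to 68850686 in GENCODE 29), the feedback inhibitor of p53, had 1728 counts in shMBD2 and 1584 in shNC. Its log2FC was 0.12 (interval 0.017 to 0.22), a ratio of 1.08. The shMBD2 library was slightly higher, by more than counting error with TMM scaling but not on the scale of the deposited TPM, where the interval held 0, beside a log2FC of -1.48 (interval -1.66 to -1.31) for MBD2 itself. Of all tested genes, 35.5% had a higher log2FC than MDM2.

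Among the members linked to apoptosis, BAX (ENSG00000087088, chromosome 19, 48954815 to 48961798), a pore-forming protein of the mitochondrial outer membrane, had 1130 counts in shMBD2 and 1144 in shNC. Its log2FC of -0.027 (interval -0.15 to 0.093) was the only value below 0 in the group, and its sign lies inside counting error. TP53INP1 (ENSG00000164938, chromosome 8, 94925972 to 94949411), a stress-induced protein that promotes cell death and autophagy, had 377 and 327 counts. Its log2FC was 0.20 (interval -0.021 to 0.41), so the difference did not exceed counting error.

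GDF15 (ENSG00000130513, chromosome 19, 18374731 to 18389176), a secreted cytokine of the TGF-β superfamily that many kinds of cell stress induce, had 862 counts in shMBD2 and 753 in shNC. Its log2FC was 0.19 (interval 0.044 to 0.33). FDXR (ENSG00000161513, chromosome 17, 74862497 to 74873031), a mitochondrial reductase that passes electrons to ferredoxin, had 1006 and 888 counts and a log2FC of 0.17 (interval 0.040 to 0.30). Both genes were higher in shMBD2 by more than counting error and by a ratio of at most 1.14. GDF15 and FDXR are in the same range as MDM2, and all 3 intervals overlap.

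The members of nucleotide supply and DNA repair were the closest to 0 after BAX. RRM2B (ENSG00000048392, chromosome 8, 102204502 to 102239118), the p53-inducible small subunit of ribonucleotide reductase, had 1823 counts in shMBD2 and 1729 in shNC, with a log2FC of 0.068 (interval -0.028 to 0.16). XPC (ENSG00000154767, chromosome 3, 14145147 to 14178783), which recognizes damage in nucleotide excision repair, had 1073 and 1001 counts and a log2FC of 0.091 (interval -0.034 to 0.22). Neither difference exceeded counting error. The upper ends of both intervals exclude a 1.5-fold difference in these libraries, as do those of every other gene of the group except SPATA18.

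ZMAT3 (ENSG00000172667, chromosome 3, 179017223 to 179072279), an RNA-binding zinc finger protein, had 671 counts in shMBD2 and 598 in shNC. Its log2FC was 0.16 (interval -0.0039 to 0.32), with 0 just inside the interval. SPATA18 (ENSG00000163071, chromosome 4, 52051331 to 52097292), which takes part in the removal of damaged mitochondrial proteins, had 179 counts in shMBD2 and 126 in shNC, the fewest of the group. It also had the largest difference, a log2FC of 0.50 (interval 0.16 to 0.84), or a ratio of 1.41. Of the tested genes, 12.9% had a higher log2FC than SPATA18, and of those with at least 100 counts 6.44% did. Its interval is wider than those of the other 8 genes and runs past 1.5-fold.

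**Figure D2:**
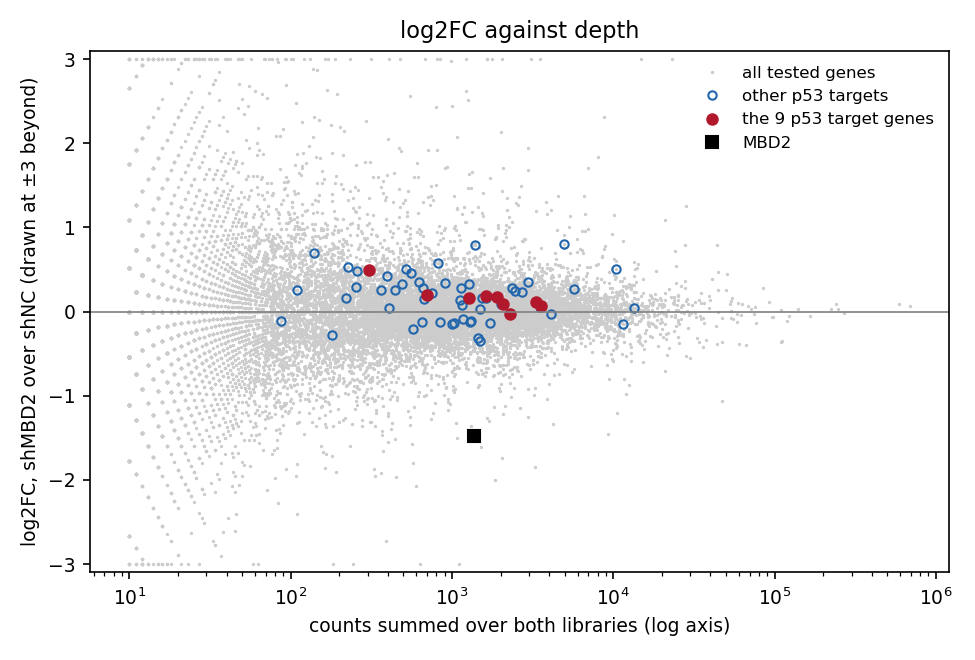
Log2FC (shMBD2 over shNC) against the counts of a gene summed over both libraries, for all 17545 tested genes (grey), 52 other p53 targets (open circles), the 9 p53 target genes (red) and MBD2 (square). The red points sit within the grey cloud, and the 1 furthest from 0 is SPATA18, the gene with the fewest reads of the 9.

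The levels of the genes spread more widely than their differences. Compared per length, as TPM, BAX was the most abundant of the group with 146 TPM in shMBD2 and 151 TPM in shNC, higher than 94.2% of shNC genes that had 10 or more counts. GDF15 followed at 126 and 113 TPM. FDXR had 70.9 and 64.2 TPM and RRM2B 64.7 and 62.9 TPM. The counting intervals of FDXR and RRM2B overlapped in both libraries, and the difference between these neighbors was not tested.

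XPC came next with 49.0 TPM in shMBD2 and 46.9 TPM in shNC, and MDM2 had 40.9 and 38.5 TPM. ZMAT3, at 12.5 and 11.4 TPM, and TP53INP1, at 11.7 and 10.4 TPM, again had overlapping intervals. SPATA18 was the lowest with 7.12 and 5.14 TPM, the latter higher than 26.9% of those shNC genes. The order was the same in both libraries, and the remaining neighbors were separated by their counting intervals. The group summed to 528 TPM in shMBD2 and 503 TPM in shNC.

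**Figure D3:**
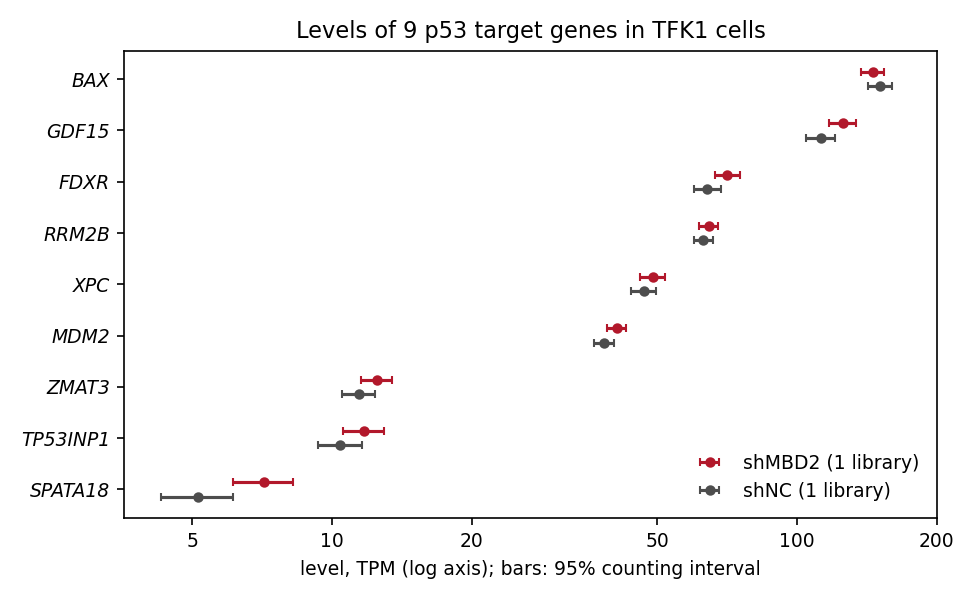
Level of each of the 9 p53 target genes as deposited TPM on a log axis, in shMBD2 (red) and shNC (grey), 1 library each, with 95% counting intervals. The order from BAX at 151 TPM in shNC down to SPATA18 at 5.14 TPM is the same in both libraries.

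Reads may be shared where genes overlap, since the strandedness of the counting is not given in the sources used here. In the deposited coordinates the whole span of TP53INP1 lies inside NDUFAF6, on the opposite strand, which had 269 counts in shMBD2 and 224 in shNC and a log2FC of 0.25. MDM2 overlaps CPM on the opposite strand by 3238 bases, and CPM had 175 and 159 counts, a log2FC of 0.13. XPC shares 426 bases with LSM3, which had 723 and 746 counts, and a further antisense gene in XPC, RP11-434D12.1, had 3 and 10. MIR3189, which lies in GDF15 on the same strand, had 11 and 7 counts. No other gene of the table overlaps BAX, FDXR, RRM2B, ZMAT3 or SPATA18. The part of shared reads in the values of TP53INP1, MDM2, XPC and GDF15 was not tested.

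The 9 genes are a part of the p53 response, and 55 other targets were grouped by role. Of these, 52 had at least 10 counts. In this wider set 37 were higher and 15 lower in shMBD2, with a median log2FC of 0.19, where 48.9% of the tested genes and 50.4% of those with at least 100 counts were higher. The counting interval lay above 0 for 24 and below 0 for 3, against 24.4% and 22.7% of the genes with at least 100 counts, a depth that 51 of the 52 reached. Past 1.5-fold were 3 genes, PLK2, DRAM1 and TLR3, all higher. Of all genes with at least 100 counts, 4.99% were higher by as much, a share near that of the list, and 4.28% were lower. No gene of the set passed a log2FC of 1 or -1, against 1.78% and 1.06% of all genes with at least 100 counts.

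CDKN1A, the p53 target that inhibits cyclin-dependent kinases, is in none of these lists or counts and was chosen after its values were seen. CDKN1A had 1821 counts (141 TPM) in shMBD2 and 994 counts (78.9 TPM) in shNC, a log2FC of 0.86 (interval 0.75 to 0.98). It was higher in shMBD2 by a ratio of 1.82, more than any of the 9 genes or of the listed targets. Of the genes with at least 100 counts, 2.55% had a higher log2FC than CDKN1A.

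Among 7 targets of cell cycle arrest, 6 were higher, against 48.9% of all tested genes, with a median log2FC of 0.26. PLK2, a polo-like kinase, had 3170 counts in shMBD2 and 1801 in shNC, and its log2FC of 0.81 (interval 0.72 to 0.89) was the largest in the lists, which leave out CDKN1A. CCNG1, an unconventional cyclin, had 1476 and 1252 counts and a log2FC of 0.23 (interval 0.12 to 0.34). BTG2, an antiproliferative factor, was at 0.46 (interval 0.21 to 0.71). E2F7, a repressor of E2F targets, was at -0.15 (interval -0.33 to 0.03), and its sign lies inside counting error.

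Of 17 targets of apoptosis, 16 were tested, with a median log2FC of 0.14. Of these, 11 were higher, against 48.9% of all tested genes, and 5 lower. The death receptor TNFRSF10B had 3111 counts in shMBD2 and 2570 in shNC, a log2FC of 0.27 (interval 0.19 to 0.34), and the death receptor FAS was at 0.51 (interval 0.25 to 0.77). PERP, a membrane protein of desmosomes, had 5466 and 6014 counts and was lower, at -0.15 (interval -0.20 to -0.094). TP53I3, a quinone oxidoreductase, was the lowest of the list at -0.31 (interval -0.46 to -0.16). The BH3-only genes BBC3 and PMAIP1 were at 0.048 and 0.35, beside -0.027 for BAX. TP53AIP1 had 0 counts in both libraries, a result that allows up to 3 counts in each.

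All 5 targets of DNA repair had intervals that held 0, with 2 higher, 3 lower and a median log2FC of -0.11. Of all genes with at least 100 counts, 24.4% had an interval above 0 and 22.7% below 0, and 50.4% were higher. PCNA, the sliding clamp of replication, had 6817 counts in shMBD2 and 6577 in shNC (log2FC 0.043), and ASCC3, a DNA helicase, had 1807 and 1727 (log2FC 0.057). DDB2, which works with XPC in damage recognition, was at -0.14 and XPC at 0.091.

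Among 13 targets of metabolism and stress, 10 were higher, against 48.9% of all tested genes, with a median of 0.22. DRAM1, a lysosomal protein of autophagy, had 878 counts in shMBD2 and 503 in shNC, a log2FC of 0.79 (interval 0.64 to 0.96). DDIT4, an inhibitor of mTORC1, was at 0.090 (interval -0.037 to 0.22) and ISCU, an iron-sulfur scaffold, at 0.16 (interval 0.023 to 0.31). TIGAR, a fructose bisphosphatase listed as C12orf5, was at 0.35.

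Of the other feedback genes, 3 of 5 were higher, against 48.9% of all tested genes, with a median of 0.079. RPS27L had 2042 counts in shMBD2 and 2062 in shNC (log2FC -0.023), and PHLDA3, an inhibitor of AKT, had 572 and 602 (log2FC -0.083). RCHY1, a ubiquitin ligase for p53, was at 0.42 and PPM1D, a phosphatase that turns the response off, at 0.28, beside 0.12 for MDM2.

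Secreted and surface proteins had the highest median of the lists, 0.43, over 6 of 8 genes tested. Of these 6, 5 were higher, against 48.9% of all tested genes. LIF, an IL-6 type cytokine, had 1654 counts in shMBD2 and 1288 in shNC (log2FC 0.35, interval 0.25 to 0.46). TLR3, an RNA sensor, was the only gene of the list past 1.5-fold, at 0.70 on 87 and 53 counts, with an interval from 0.20 to 1.23. KITLG, the ligand of KIT, was lower at -0.35.

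Of 18 regulators of the p53 protein, 9 were higher, against 48.9% of all tested genes, and 9 lower, with a median log2FC of -0.011. The counting interval lay above 0 for 5 and below 0 for 5, against 19.7% and 18.4% of the tested genes. Among genes with at least 100 counts these shares were 24.4% and 22.7%. MDM4, the partner of MDM2 in holding p53 inactive, had 659 counts in shMBD2 and 881 in shNC, a log2FC of -0.43 (interval -0.58 to -0.28), opposite in sign to the 0.12 of MDM2. The ribosomal proteins RPL5 and RPL11, which bind MDM2 when ribosome assembly is disturbed, were at 0.15 (interval 0.10 to 0.20) and 0.20 (interval 0.15 to 0.25). The deacetylase SIRT1 was at -0.33 and the damage kinase ATM at -0.20. TP63, a p53 family member, had 35 and 61 counts and was at -0.80 (interval -1.45 to -0.19). It was the only regulator past 1.5-fold, and 10.9% of the tested genes were lower by more than 1.5-fold.

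Of 16 genes of cell division that active p53 lowers, 9 were higher, against 50.4% of genes with at least 100 counts, and 7 lower. Their median log2FC was 0.024. The counting interval lay above 0 for 3 and below 0 for 7, CCNB2, CDK1, CDC25C, KIF23, FOXM1, MAD2L1 and BUB1, against 24.4% and 22.7% of all genes with at least 100 counts. The interval of MAD2L1 ended just below 0. TOP2A, a DNA topoisomerase, had 20039 counts in shMBD2 and 19327 in shNC (log2FC 0.043), and CCNB1, the mitotic cyclin B1, had 3651 and 3554 (log2FC 0.030). CDC25C, a phosphatase that activates CDK1, was the lowest at -0.37 (interval -0.60 to -0.15), and MYBL2, a transcription factor of the cell cycle, the highest at 0.32 (interval 0.22 to 0.41). The sign of this median changed on the TPM scale, and that of the regulators' median changed with a minimum of 100 counts.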

How the data were processed

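Total RNA of 2 TFK1 libraries, 1 per condition, was analyzed. The authors deposited whole-number read counts per gene and TPM per gene; per the labels, the submitters' processing notes name fastp, HISAT2 2.1.0, featureCounts, DESeq 1.18.1 and GRCh38.p13. The deposited gene positions are not those of GENCODE 29 (GRCh38), so positions in the text come from GENCODE 29. Of 63677 rows with an Ensembl identifier, 1 per symbol and value was kept. Counts were scaled with TMM (edgeR 4.0.16, R 4.3.3) over the whole table, and intervals were computed with scipy 1.17.1. Scripts were tested on simulated counts. As alternatives, total counts, upper-quartile factors, DESeq2 1.42.0 factors, log2 of TPM plus 0.1 or 1, other priors and other count minimums were tried. The genes and lists were chosen with earlier results of these data known. Named genes are the 9 genes, MBD2, list genes past 1.5-fold with at least 100 counts in the higher library (the 2 genes with most counts where a list has fewer than 2 of these), and overlapping genes with at least 10 counts; further names were chosen after values were seen. Some genes of the pathway are not reported here.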

Additional observations from a re-analysis of the deposited data

How the results depend on the processing

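MDM2, TP53INP1, GDF15, FDXR, RRM2B, XPC, ZMAT3 and SPATA18 were higher and BAX lower in shMBD2 under the 7 other scalings, priors and TPM offsets. The median log2FC of the 9 genes lay between 0.12 and 0.17, that of SPATA18 between 0.40 and 0.50 and that of BAX between -0.055 and -0.018. No setting brought a member past 1.5-fold. On the TPM scale each log2FC moves by -0.028, and there, added after seeing the data, 3 counting intervals lay above 0 in place of 4, without MDM2; the DESeq2 size factors gave 5, with ZMAT3. The median of the cell division genes lay between -0.0042 and 0.033 and that of the regulators between -0.039 and 0.019.

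Of the secreted and surface proteins, 2 genes passed 1.5-fold upwards with the DESeq2 size factors or at least 1 count and 0 with TPM plus 1; with at least 1 count, 1 passed downwards, which is also the 1 among all other targets. Of the regulators, 0 passed downwards with TPM plus 1 or at least 100 counts, in place of TP63. Over all genes, 961 lay above 1, 890 below -1, 1931 higher and 1918 lower by 1.5-fold. With TPM plus 1 these were 374, 340, 1100 and 1209, with at least 1 count 4523, 4303, 6046 and 5889, and with at least 100 counts 213, 127, 598 and 513; the count minimums change how many genes are tested. Ordered by scaled counts in place of TPM, 3 of the 9 genes kept their rank, since counts are not per length. No paired analysis was possible because 1 library per condition leaves no numbered replicates, so spread among cultures is unknown.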
